A study of Drosophila melanogaster with 10 samples.

Results

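TM4SF and CG2233 were the 2 genes examined, of 13984 gene names measured and 7690 with a mean of at least 1 RPKM (reads scaled by transcript length and by the library's mapped reads) over the RNA libraries. They were chosen from the same RNA values shown here, as genes past 2-fold higher when each of the piRNA factors Piwi, Armi, Mael and CG3893 was depleted but not when HP1a was depleted. Their levels are therefore given as a description, without a test. TM4SF (FBgn0020372, also CG11303) lies on chromosome 2R at 19765981 to 19768383 in build dm3 and encodes a tetraspanin, a multi-pass membrane protein. CG2233 (FBgn0029990) lies on the X chromosome at 7929764 to 7931533 and is listed by RefSeq as protein-coding. The files do not state whether starts count from 0 or from 1, and each gene had 1 row in each gene table.

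The cells were OSC, a Drosophila melanogaster line derived from the ovarian soma, grown at 26 °C and collected 2 days after a single siRNA transfection. The groups were siRNA knock-downs of HP1a and of the piRNA factors Armi, CG3893, Mael and Piwi, and a control transfected with siRNA against EGFP, with 1 poly(A) RNA library each, so no difference has a replicate check and no p-value is given. RNA polymerase II libraries of the same series held transposable element (TE) entries alone and no gene, and were not analysed here. In these bulk samples, a change in the number of cells that express a gene and a change in RNA per cell cannot be told apart.

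In the ovarian soma, Piwi is loaded with piRNAs, small RNAs whose production needs the RNA helicase Armi, and enters the nucleus to silence TEs during transcription. Mael and the zinc finger protein CG3893 act in the nuclear part of this pathway. HP1a is a chromatin protein that binds methylated histone H3 lysine 9 in heterochromatin, both at piRNA targets and elsewhere. Genes near a TE insertion can gain RNA when the insertion loses silencing. Insertions of this cell line were not examined here.

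Gene values came as RPKM without read numbers. The smallest values of low genes differed between libraries by fixed steps, which gave depths relative to control of 54.3% in HP1a, 65.5% in Armi, 74.3% in Mael, 92.5% in the CG3893 and 108% in the Piwi library. The targeted genes stood, in their own knock-downs, at 30.1% of control for piwi, 35.9% for armi, 10.3% for mael, 48.4% for CG3893 and 30.2% for the gene of HP1a. In the other knock-downs they lay between 73.8% and 119% of control. Depletion thus differed between targets, and its part in the order of the knock-downs was not tested. The follicle cell regulator tj lay between 151 and 206 RPKM in all 6 libraries. Of 7 follicle and somatic gonad markers found, tj among them, 1 was under 1 RPKM in every library, Sox100B. Between their lowest and highest libraries, Fas3 and bnl differed by more than 2-fold, and tj, fs(1)Yb, zfh1 and ptc by less. Of 7 germline markers, 2 were under 1 RPKM in every library, nos and osk. The 7 germline markers summed to 12.8 RPKM in HP1a and to between 5.71 and 6.41 RPKM in the other knock-downs, against 5.48 RPKM in the control. Among them vas was at 6.38 RPKM in HP1a, against 1.56 RPKM in the control. Of 4 hemocyte markers found, 2 were under 1 RPKM in every library, and the list summed to 29.6 RPKM in HP1a and 19.5 to 21.2 RPKM in the other knock-downs, against 18.2 RPKM in the control. The expressed members went opposite ways in HP1a. There srp was at 21.6 RPKM, against 8.83 RPKM in the control, and Pxn at 7.83 RPKM, against 9.36 RPKM. Of 3 genes listed as fat body markers, 2 were under 1 RPKM throughout. The list summed to 6.74 RPKM in HP1a and 2.21 to 2.90 RPKM in the other knock-downs, against 1.72 RPKM in the control. Most of this sum in each library came from Yp1, which had its highest level in HP1a. Whether Yp1 marks fat body in this line was not tested, so the sum is not read as fat body RNA. The HP1a library thus had the highest sum of these 3 lists and the lowest depth. Its neuron sum was also the highest, at 12.4 RPKM against 10.1 RPKM in the control, and in HP1a all of it was the 1 gene elav. Its muscle sum was the lowest, at 4.42 RPKM against 5.52 RPKM, of which Mhc alone gave 4.32 and 5.44 RPKM. These 2 sums thus describe single genes. The follicle sum in HP1a was 534 RPKM against 588 RPKM. The part of depth and of these markers in the HP1a results was not tested.

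TM4SF RNA was several-fold higher in each piRNA factor knock-down and least raised in HP1a. It stood at 202 RPKM in Piwi, 158 RPKM in Armi, 229 RPKM in Mael, 129 RPKM in CG3893 and 70.7 RPKM in HP1a, against 36.9 RPKM in the control. All 5 knock-downs were above the control, and HP1a was the lowest of them. These levels were 6.22 times control in Mael, 5.48 in Piwi, 4.27 in Armi, 3.49 in CG3893 and 1.92 in HP1a. On the log2(RPKM + 1) scale, used for all calls, the changes were 2.60, 2.42, 2.06, 1.77 and 0.92 in the same order, so that the limit of 2-fold was passed in 4 knock-downs and narrowly missed in HP1a. By size of change TM4SF ranked 19 of 7690 genes in Armi, 23 in Piwi, 38 in CG3893, 44 in Mael and 331 in HP1a. Its level moved it to rank 329 in Mael, where it was highest, against rank 2763 in the control.

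CG2233 RNA followed the same course at a lower level. It stood at 44.8 RPKM in Piwi, 36.2 RPKM in Armi, 41.2 RPKM in Mael, 26.0 RPKM in CG3893 and 19.5 RPKM in HP1a, against 12.0 RPKM in the control. Again every knock-down lay above the control and HP1a was the lowest of them. The smallest whole reads that fit these values within a tolerance were 2158 in Piwi, 1367 in Mael, 1074 in CG3893, 1058 in Armi and 474 in HP1a, against 536 in the control. Corrected for depth, the ratio to control was 3.74-fold in Piwi (3.40 to 4.12), 3.01-fold in Armi (2.71 to 3.35), 3.43-fold in Mael (3.10 to 3.80), 2.17-fold in CG3893 (1.95 to 2.41) and 1.63-fold in HP1a (1.44 to 1.84). The brackets are 95% exact binomial intervals, which cover counting error and not the spread between cultures. No whole-read solution was found for TM4SF, so its counting error is not given. The search stopped at 1000 reads in the control, and TM4SF, at 36.9 RPKM there, may lie beyond that limit. RefSeq lists 3 transcripts for TM4SF, against 1 for CG2233. Why no solution was found was not tested.

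**Figure D1:**
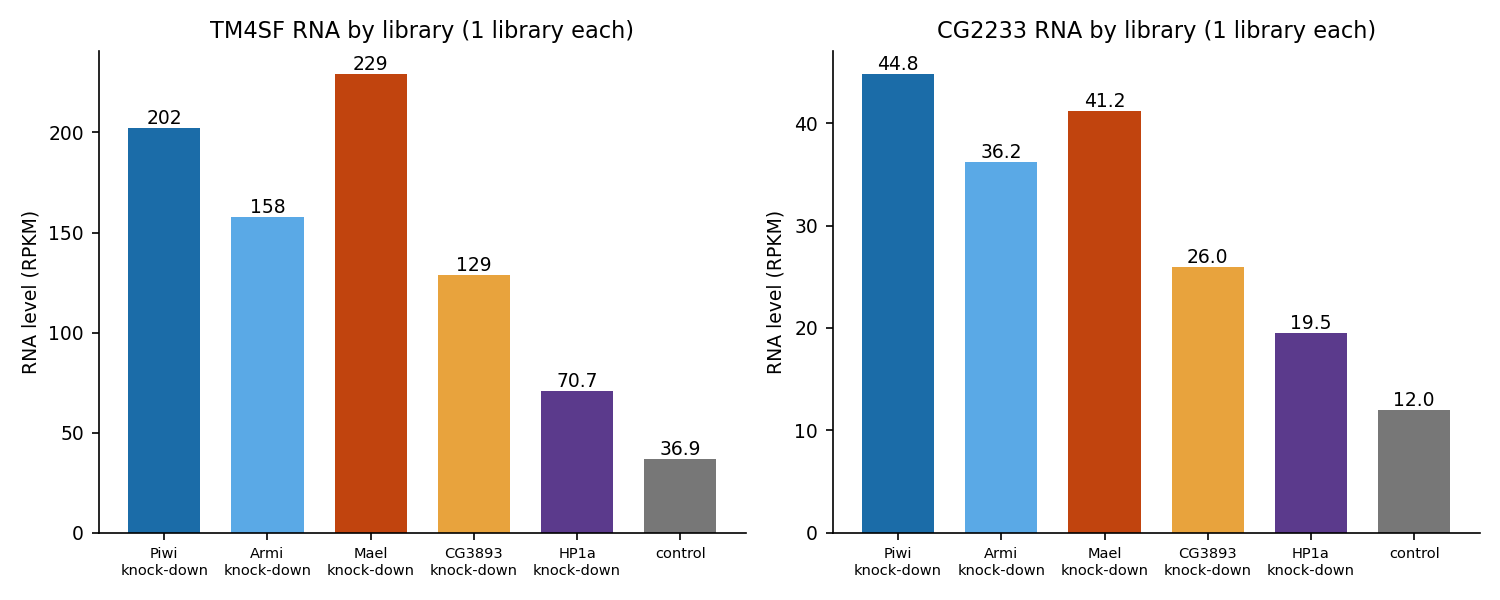
RNA level in RPKM (vertical axis, from 0) of TM4SF (left) and CG2233 (right) in each library (horizontal axis), with 1 library per bar and no error bar. TM4SF ran up to 229 RPKM in Mael against 36.9 RPKM in the control, CG2233 up to 44.8 RPKM in Piwi against 12.0 RPKM in the control, and HP1a was the lowest knock-down for both.

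Within each gene the knock-downs could be ordered by level. TM4SF was highest in Mael, then Piwi, Armi, CG3893 and HP1a, while CG2233 was highest in Piwi, then Mael, Armi, CG3893 and HP1a. The genes thus shared the lower part of this order and differed in which of Mael and Piwi came first. For CG2233 the step between these libraries was small, at 1.09-fold for Piwi over Mael (1.02 to 1.17), as was that from Mael to Armi, at 1.14-fold (1.05 to 1.24). Armi over CG3893 was a larger step, at 1.39-fold (1.28 to 1.52). Without replicate cultures, their spread is unknown.

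Set directly against HP1a, without the shared control library, TM4SF was 3.24-fold higher in Mael, 2.86-fold in Piwi, 2.23-fold in Armi and 1.82-fold in CG3893. CG2233 was 2.30-fold higher than in HP1a in Piwi (2.08 to 2.54), 1.85-fold in Armi (1.66 to 2.07), 2.11-fold in Mael (1.90 to 2.35) and 1.33-fold in CG3893 (1.19 to 1.49). Both genes were chosen on these same libraries, so that HP1a lies lower belongs to their choice. The intervals give counting error alone and are no test of it. Both genes therefore lay closest to HP1a in the CG3893 library, where CG3893 RNA remained at 48.4% of control. Counted in RPKM above control, TM4SF gained 33.8 RPKM in HP1a, which was 17.6% of its gain in Mael, 20.4% of that in Piwi, 28.0% of that in Armi and 36.8% of that in CG3893. The gain of CG2233 in HP1a, 7.53 RPKM, was 25.8%, 22.9%, 31.1% and 53.8% of its gains in Mael, Piwi, Armi and CG3893. The level of TM4SF relative to CG2233, both per length, was 5.57 in Mael, 4.95 in CG3893, 4.51 in Piwi, 4.36 in Armi and 3.62 in HP1a, against 3.08 in the control.

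Among all genes tested, 3.85% were past 2-fold higher in HP1a, 2.42% in Mael, 1.56% in Piwi, 1.01% in CG3893 and 0.975% in Armi. All 5 comparisons share the 1 control library. The choice of TM4SF and CG2233 used these contrasts, so nothing is read from their own count. In all, 33 genes (0.429%) were past 2-fold higher in the 4 piRNA factor knock-downs, and 29 of these were also past it in HP1a. The other 4 (0.052% of all genes tested) were TM4SF, CG2233, Kif3C and CG42304. By that rule the HP1a change of these 4 is the lowest of the 5 knock-downs, which is no finding. Among the 29 it was the highest of the 5 for 11 genes. Short RNA genes made up 4 of the 29, and 1 of these, snoRNA:Psi28S-1837c, was among the 11. This gene and snoRNA:Psi18S-841a were listed at 0 RPKM in the control. Just inside the HP1a limit lay TM4SF and CG42304, with log2 changes of 0.92 and 0.90, and just outside it lay CG42565 and CG9837, with 1.33 and 1.43. At the other limit, CG2233 was barely past 2-fold in CG3893, with a log2 change of 1.05.

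**Figure D2:**
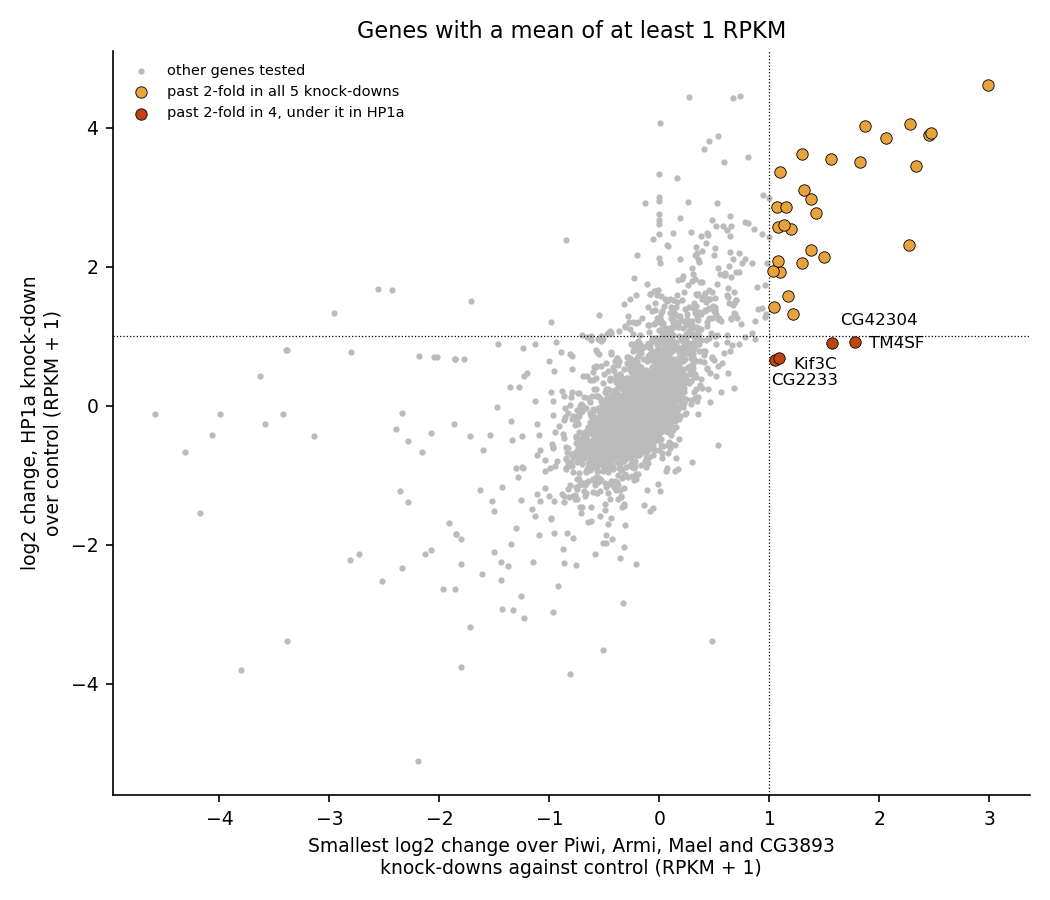
Log2 change over control in HP1a (vertical axis) against the smallest log2 change over the Piwi, Armi, Mael and CG3893 knock-downs (horizontal axis), both from RPKM + 1, for genes with a mean of at least 1 RPKM. Each point is a gene, dotted lines mark 2-fold, and the 4 red points right of the vertical and below the horizontal line are TM4SF, CG2233, Kif3C and CG42304; the 29 orange points are past 2-fold in all 5.

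Kif3C, a kinesin-family motor gene on chromosome 4, had 87.0 RPKM in Piwi, 82.6 RPKM in Armi, 94.5 RPKM in Mael, 76.6 RPKM in CG3893 and 57.8 RPKM in HP1a, against 35.6 RPKM in the control. Its piRNA factor knock-downs lay closer together than those of TM4SF and CG2233. CG42304 entered differently, since it shares its locus on 3L with CG42303. CG42304 was at 2.12 RPKM in Piwi, 2.14 RPKM in Armi, 10.4 RPKM in Mael, 11.9 RPKM in CG3893 and 0.96 RPKM in HP1a, against 0.05 RPKM in the control. CG42303 was at 8.99, 8.82, 0.01, 0.003 and 8.98 RPKM in the same knock-downs, against 11.0 RPKM in the control. The sum of the pair was 11.1 RPKM in Piwi, 10.96 RPKM in Armi, 10.4 RPKM in Mael, 11.95 RPKM in CG3893 and 9.94 RPKM in HP1a, against 11.1 RPKM in the control, so that the RNA of the locus differed little while its division between the gene names did. With the pair summed, 3 genes had the pattern.

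Genes beside CG2233 were not all at control level, and those that rose lay on one side. Of 9 genes within 50 kb, 6 had a mean of at least 1 RPKM. On the side of lower coordinates lay Tbh, at a distance of 9.20 kb (X, 7889729 to 7920567), and CG15333, at 14.5 kb (7913553 to 7915297), whose locus lies inside that of Tbh. Tbh encodes tyramine beta-hydroxylase, the enzyme that makes the neurotransmitter octopamine. Past 2-fold higher were both genes in Piwi and Mael, Tbh in Armi, and CG15333 in CG3893 and HP1a. These were 2 of 6, 2 of 6, 1 of 6, 1 of 6 and 1 of 6 neighbours in Piwi, Mael, Armi, CG3893 and HP1a, beside the shares of 1.56%, 2.42%, 0.975%, 1.01% and 3.85% of all genes given above. Past 2-fold lower were 0 of 6 in each knock-down, where 1.9% of all genes were in HP1a, 0.806% in Mael, 0.468% in Piwi, 0.429% in Armi and 0.377% in CG3893. The values of the neighbours had no part in the choice of CG2233.

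Tbh stood at 11.7 RPKM in Piwi, 11.3 RPKM in Armi, 17.96 RPKM in Mael, 6.70 RPKM in CG3893 and 8.48 RPKM in HP1a, against 4.03 RPKM in the control. Every knock-down was above the control, with Mael highest and CG3893 lowest, whereas CG2233 was lowest in HP1a. From 1200, 706, 1272, 591 and 439 reads against 384 in the control, the ratio was 2.90-fold in Piwi (2.58 to 3.26), 2.81-fold in Armi (2.48 to 3.19), 4.46-fold in Mael (3.97 to 5.01), 1.66-fold in CG3893 (1.46 to 1.90) and 2.10-fold in HP1a (1.83 to 2.42). The HP1a ratio of Tbh passed 2-fold as a plain ratio, while its log2(RPKM + 1) change of 0.91 did not.

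CG15333 stood at 3.05 RPKM in Piwi, 2.67 RPKM in Armi, 12.2 RPKM in Mael, 3.03 RPKM in CG3893 and 4.10 RPKM in HP1a, against 0.92 RPKM in the control. Mael stood far above the other knock-downs, and HP1a came next. It rested on 178, 95, 492, 152 and 121 reads against 50 in the control, which gave ratios of 3.30-fold in Piwi (2.40 to 4.62), 2.90-fold in Armi (2.04 to 4.17), 13.2-fold in Mael (9.89 to 18.1), 3.29-fold in CG3893 (2.37 to 4.62) and 4.45-fold in HP1a (3.18 to 6.32). CG15333 over HP1a was 0.742-fold in Piwi (0.586 to 0.943), so its order of knock-downs was not that of CG2233. As the strand setting of the counting is not given, reads of CG15333 and of Tbh, within which it lies, cannot be told apart with certainty.

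The genes on the other side of CG2233 lay near control. The nearest was fs(1)h, a bromodomain chromatin regulator 2.44 kb away, at 80.9 RPKM in Piwi, 79.4 RPKM in Armi, 78.1 RPKM in Mael, 72.9 RPKM in CG3893 and 79.4 RPKM in HP1a, against 82.3 RPKM in the control. The integrin beta subunit gene mys and the nonsense-mediated decay factor gene Upf2 followed, and the log2 changes of these 3 genes over the 5 knock-downs ran from -0.17 to 0.29. The actin-bundling gene sn, 49.6 kb away beyond Tbh, was at 5.64 RPKM in Piwi and 11.1 RPKM in HP1a, against 7.07 RPKM in the control, and was under 2-fold in all 5. The other 3 neighbours, CG1571, CG2254 and CG2256, were under the mean of 1 RPKM.

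The surroundings of TM4SF showed no such neighbours. Of 29 genes within 50 kb, 25 had a mean of at least 1 RPKM, and 1 of these passed 2-fold in any knock-down, the short RNA gene snoRNA:Psi18S-176. It was listed at 0 RPKM in Piwi, Armi and CG3893, at 3.05 RPKM in Mael and at 8.32 RPKM in HP1a, against 2.27 RPKM in the control. It was thus 1 of 25 lower in Piwi, Armi and CG3893, beside 0.468%, 0.429% and 0.377% of all genes, and 1 of 25 higher in HP1a, beside 3.85%. Its locus spans 154 bases, and its reads are not given. Its Mael value was 1.35 times control, which equal reads in both libraries would give at the Mael depth of 74.3%. The 2-fold calls of this gene may thus rest on very few reads. The other 24 genes had log2 changes between -0.73 and 0.23 over the 5 knock-downs, and the median over the 25 was -0.18 in HP1a, -0.13 in Mael, -0.12 in CG3893, -0.11 in Piwi and -0.10 in Armi, beside medians of all genes of -0.08, -0.05, -0.02, -0.04 and -0.03.

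The genes next to TM4SF were ken and CG4882. The transcriptional repressor gene ken, 1.02 kb away on the side of lower coordinates, was at 34.9 RPKM in Piwi, 39.3 RPKM in Armi, 36.2 RPKM in Mael, 36.9 RPKM in CG3893 and 34.1 RPKM in HP1a, against 37.4 RPKM in the control. CG4882 overlaps the end of the TM4SF locus by 44 or 45 bases, depending on how starts are counted. It was at 45.4 RPKM in Piwi, 49.4 RPKM in Armi, 38.5 RPKM in Mael, 51.6 RPKM in CG3893 and 49.5 RPKM in HP1a, against 64.7 RPKM in the control. All 5 values lay below the control and none passed 2-fold, with the lowest value in Mael, where TM4SF was highest. Farther out, the piRNA biogenesis gene shu, 35.2 kb away, was at 119 RPKM in Piwi, 119 RPKM in Armi, 114 RPKM in Mael, 122 RPKM in CG3893 and 98.9 RPKM in HP1a, against 131 RPKM in the control. The BMP ligand gene gbb ranged from 92.9 to 106 RPKM over all 6 libraries, and the nucleosome assembly gene Nap1 was between 393 and 559 RPKM in the knock-downs, against 625 RPKM in the control.

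**Figure D3:**
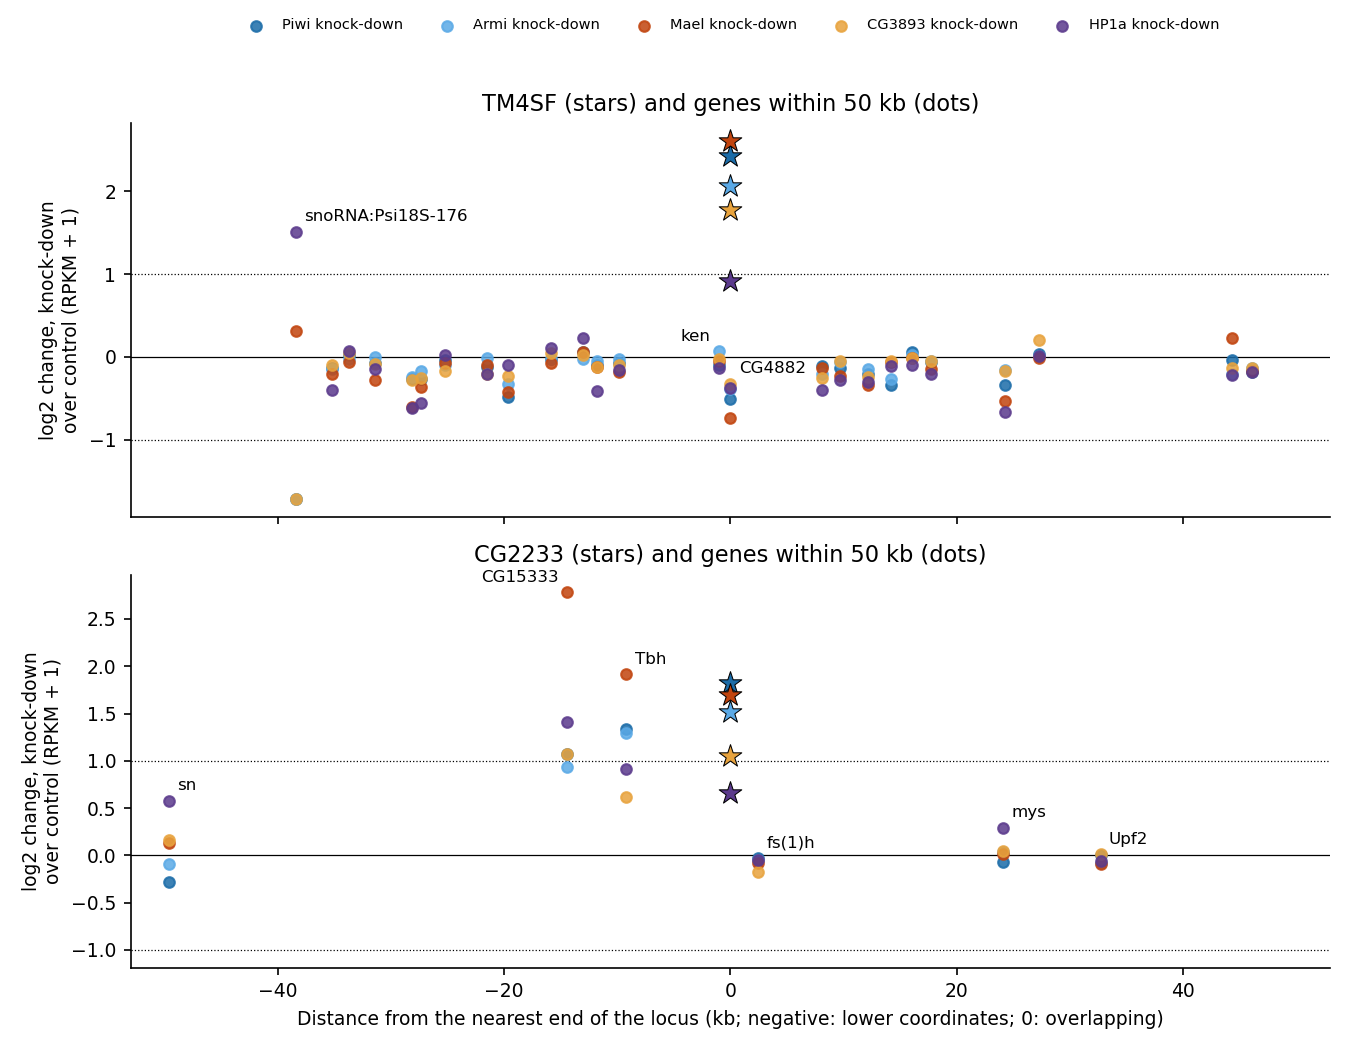
Log2 change over control from RPKM + 1 (vertical axis) against the distance from TM4SF (top) or CG2233 (bottom) in kb (horizontal axis), for neighbours with a mean of at least 1 RPKM. Stars are TM4SF or CG2233, dots are neighbours, colours are the knock-downs and dotted lines mark 2-fold; Tbh and CG15333 lie above 0 in all 5 knock-downs, while the other neighbours of CG2233 and all but the snoRNA gene near TM4SF stay under 2-fold. The Piwi, Armi and CG3893 dots of the snoRNA gene coincide.

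Tetraspanins gather partner proteins, integrins among them, into membrane domains, so both families were looked at. Of 35 other tetraspanin genes, 16 had a mean of at least 1 RPKM, and 0 of the 16 were past 2-fold higher or lower in Piwi, Armi, Mael or CG3893. With 0.975% to 2.42% of all genes higher and 0.377% to 0.806% lower in these knock-downs, a count of 0 among 16 does not set the family apart. Their median log2 change was 0.30 in HP1a, 0.10 in CG3893, 0.08 in Armi, 0.05 in Mael and -0.00 in Piwi, beside -0.08, -0.02, -0.03, -0.05 and -0.04 for all genes. In HP1a, 3 of the 16 were past 2-fold higher, Tsp42El, Tsp74F and lbm, where 3.85% of all genes were. Tsp42El (2R, 2933277 to 2936050) and lbm (2R, 2937300 to 2939470) lie close together, and whether they changed separately was not tested. Tsp42El was at 19.6 RPKM in HP1a and between 5.59 and 7.71 RPKM in the other knock-downs, against 4.87 RPKM in the control. The late bloomer gene lbm, known from motor axons, was at 12.6 RPKM in HP1a, against 5.14 RPKM in the control, and Tsp74F at 4.07 RPKM, against 1.32 RPKM. Each of these 3 had its highest level in HP1a. That TM4SF was least raised there belongs to its choice, so the contrast is a description.

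The most abundant tetraspanin, Tsp42Ee, ranged from 430 RPKM in Piwi to 495 RPKM in CG3893, against 486 RPKM in the control. Tsp42Ed was between 66.4 and 93.2 RPKM in the knock-downs, against 106 RPKM in the control. TM4SF, at 36.9 RPKM in the control, thus came to exceed Tsp42Ed in each piRNA factor knock-down and in HP1a by less than 1 RPKM. Of 7 integrin genes found under their names, 4 had a mean of at least 1 RPKM, and 0 were past 2-fold in Piwi, Armi, Mael or CG3893, a count too small to read against the same shares of all genes. The integrin alpha subunit gene scb was past it in HP1a, as 1 of 4 genes beside 3.85% of all genes, at 16.7 RPKM against 7.74 RPKM in the control. The beta subunit gene mys, a neighbour of CG2233, was between 114 and 147 RPKM in all 6 libraries.

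**Figure D4:**
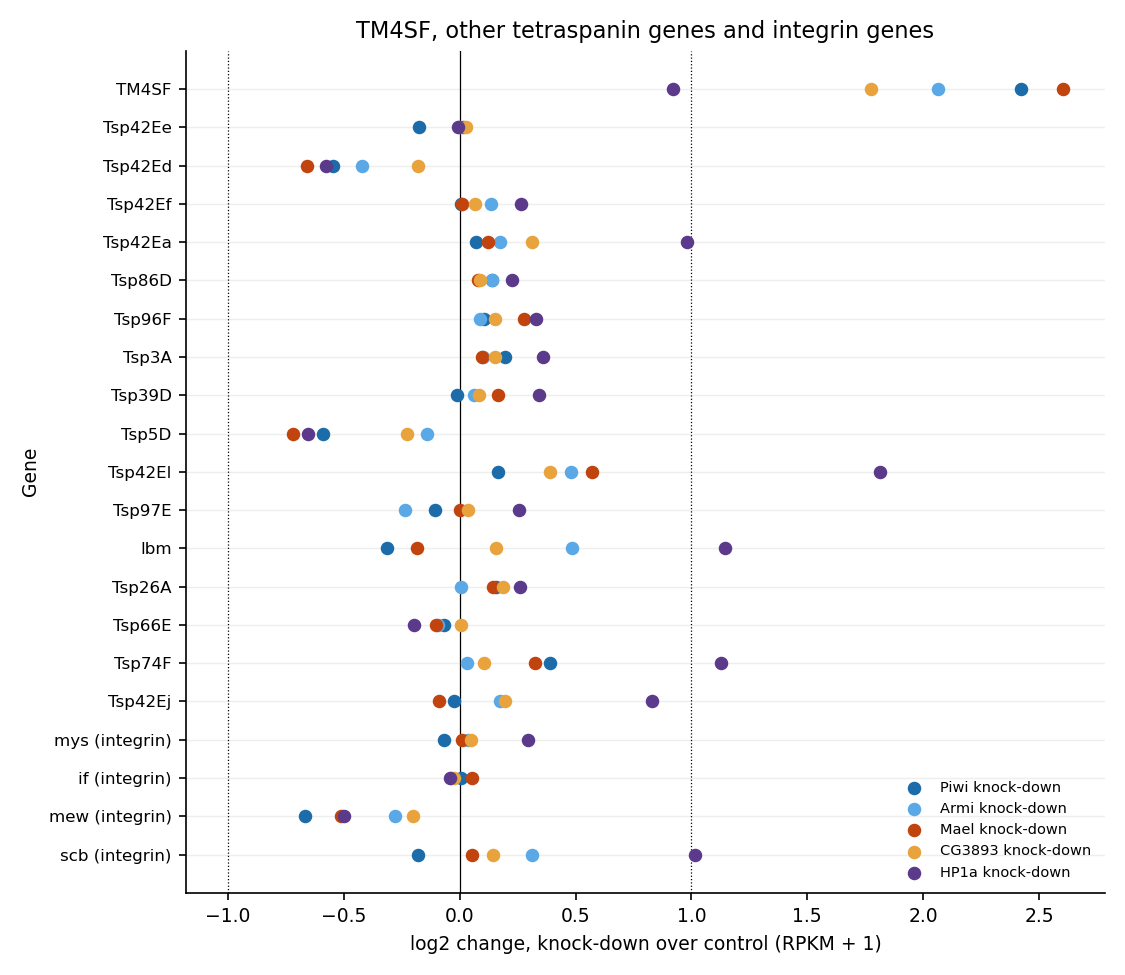
Log2 change over control from RPKM + 1 (horizontal axis) of TM4SF, 16 other tetraspanin genes and 4 integrin genes (rows, each family by falling mean level), with a coloured dot per knock-down and dotted lines at 2-fold. TM4SF is past 2-fold in Piwi, Armi, Mael and CG3893; Tsp42El, Tsp74F, lbm and scb are past it in HP1a.

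Genes of similar course were found by the root-mean-square difference over the 6 libraries of log2(RPKM + 1) less each gene's own mean. CG2233 was the gene closest to TM4SF, with a difference of 0.30 beside a median of 0.93 over 7689 genes, and was followed by CG42565 at 0.38, Kif3C at 0.45, and CG3635 and Snap25 at 0.46 each. Closest to CG2233 were Kif3C at 0.22, Snap25 at 0.23, CG15429 at 0.25, CG11255 at 0.26 and CG34432 at 0.28, beside a median of 0.66. TM4SF and CG2233 were chosen by one rule, which Kif3C also meets, so that the closeness of these genes is partly set by it. The closest of many genes lie below the median by the way they are picked, so the medians give scale and are no test. Snap25, a gene of synaptic vesicle fusion, was at 10.5 RPKM in Piwi, 6.75 RPKM in Armi, 10.3 RPKM in Mael, 6.40 RPKM in CG3893 and 4.51 RPKM in HP1a, against 3.63 RPKM in the control, so it shared the order of CG2233 at smaller changes. CG42565 was at 13.9 RPKM in Piwi, 7.23 RPKM in Armi, 21.0 RPKM in Mael, 5.18 RPKM in CG3893 and 5.67 RPKM in HP1a, against 1.66 RPKM in the control. Its changes were steeper than those of TM4SF in Piwi and Mael, and HP1a lay above CG3893.

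Among the 119 TE families that passed the same filter, GYPSY10 had the course most like both genes. Its differences were 0.51 from TM4SF and 0.27 from CG2233, beside medians of 0.93 and 0.70. The closest family lies below the median by the way it is picked, so this is a description. GYPSY10 was at 5.63 RPKM in Piwi, 4.41 RPKM in Armi, 6.69 RPKM in Mael, 3.16 RPKM in CG3893 and 3.89 RPKM in HP1a, against 1.68 RPKM in the control. The LINE-type element I came next for both, at 51.8 RPKM in Piwi, 42.3 RPKM in Armi, 44.8 RPKM in Mael, 28.3 RPKM in CG3893 and 39.5 RPKM in HP1a, against 21.6 RPKM in the control. For both TEs HP1a was above CG3893, unlike TM4SF and CG2233, whose low HP1a level belongs to their choice. POGON1 was the third for TM4SF at 0.64, and DEC1_DS the third for CG2233 at 0.40. In these HP1a was below CG3893, at 22.3 against 27.3 RPKM for POGON1 and 76.2 against 101 RPKM for DEC1_DS. Of the 11 TE families past 2-fold higher in all 4 piRNA factor knock-downs, 0 were under it in HP1a, and the HP1a change was the lowest of the 5 for 0 families and the highest for 6. Among genes 4 of 33 were under it in HP1a, so a count of 0 among 11 does not set TE families apart. The share of all 119 TE families past 2-fold in HP1a was not counted.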

How the data were processed

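RNA levels were deposited by the authors as RPKM per gene entry and per TE entry, per the file headers, with 1 library in each group. Build dm3 and the tools TopHat2 2.0.7, Cufflinks 2.0.2, Bowtie2 2.0.0 and cutadapt come from the submitters' processing notes. The annotation, strandedness and treatment of multiply matching reads were not given in the sources used here. Of 14145 gene rows, 161 repeated a name and were summed. Changes are log2((knock-down + 1)/(control + 1)) in RPKM, for genes with a mean of at least 1 RPKM over the 6 libraries, with a fixed limit of 2-fold in place of a test; folds are plain ratios of the values as deposited. Neighbours are genes whose locus ends within 50 kb.

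Relative depth is the commonest ratio of gene values under 0.3 RPKM, taken as control over library. Reads of a gene are the smallest whole numbers, up to 1000 in the control, that fit all 6 values within 0.02 reads plus a relative tolerance of 1e-05 (8e-05 below a whole number, outside Armi and Mael). Such reads are the smallest that fit, were not compared with larger fits and may differ from those counted. The intervals rest on them. Intervals are exact Clopper-Pearson. Calls and the read search were checked on simulated data.

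The genes named were TM4SF, CG2233, neighbours, 5 genes and 3 TE families of closest course for each, genes of the same pattern, those at the HP1a limit, and tetraspanin and integrin genes past 2-fold or most abundant. The 2 genes, the lists and the rules were chosen with earlier results of these data known. The alternatives tried were pseudocounts of 0.1 and 5 RPKM, other scalings and filters, and windows of 20 and 100 kb. Python 3.11.15, numpy 2.4.6, pandas 2.3.3, scipy 1.17.1 and matplotlib 3.10.9 were used. Gene identifiers and transcript numbers came from name tables, the latter of another assembly.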

Additional observations from a re-analysis of the deposited data

How the results depend on the processing

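No paired analysis was possible because each group held 1 library, and for the same reason no library could be left out. The log2 changes of TM4SF and CG2233 kept their direction under every pseudocount and scaling tried, and their side of 2-fold with 1 exception, CG2233 in CG3893, at 0.87 with a pseudocount of 5. TM4SF in HP1a ran from 0.85 to 0.995, just under 2-fold when centred on the median gene. The pattern count, 4 genes as reported, was 2 with a pseudocount of 5, 3 with a pseudocount of 0.1, 3 with a mean of at least 5 RPKM, and 3 with CG42303 and CG42304 summed, an alternative added after seeing the data.

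With a pseudocount of 5, 0 neighbours of CG2233 were past 2-fold higher in Piwi, Armi, CG3893 and HP1a, and 2 in Mael. With a pseudocount of 0.1 there were 2 in Armi and 2 in HP1a. With a mean of at least 5 RPKM there was 1 in Piwi and 1 in Mael, and 0 in CG3893 and HP1a. For TM4SF the counts set by the snoRNA gene (lower in Piwi, Armi and CG3893, higher in HP1a) were 0 with a pseudocount of 5, a mean of at least 5 RPKM, a 20 kb window, or short RNA genes left out, which was added after seeing the data; in a 100 kb window 2 were higher in HP1a. Tetraspanin and integrin genes past 2-fold higher in HP1a, 4 as reported, numbered 1 with a pseudocount of 5, 6 with a pseudocount of 0.1, 5 under either other scaling and 3 with a mean of at least 5 RPKM.

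Over all genes, a pseudocount of 0.1 gave 70 lower in Piwi, 134 higher in Armi and 141 higher in CG3893. A pseudocount of 5 gave 52 higher and 10 lower in Piwi, 34 and 16 in Armi, 92 and 24 in Mael, 35 and 15 in CG3893, and 142 and 80 in HP1a. A mean of at least 5 RPKM gave 74 higher and 18 lower in Piwi, 49 and 19 in Armi, 104 and 33 in Mael, 18 lower in CG3893 and 162 higher in HP1a. Without short RNA genes, 16 were lower in Piwi, 6 in Armi, 36 in Mael and 4 in CG3893. The direction of these differences follows from the settings, since a larger pseudocount shrinks each change and a stricter filter removes genes. The number of genes tested under each filter is not given, so these counts cannot be read as shares.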
